A study of Mus musculus with 6 samples.

Results

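A set of 8 genes of the cell death machinery were followed in cultured mouse group 2 innate lymphoid cells (ILC2s): the caspase genes Casp1, Casp6, Casp8 and Casp9, the inhibitor of apoptosis (IAP) genes Xiap, Birc2 and Birc3, and Cflar. They were taken by symbol from a table of 25865 genes, and all 8 were found and passed the filter on low values. The cells came from large intestines of C57BL/6 animals by sorting and were expanded over 5 days with 10 ng/mL each of the cytokines IL-33, IL-25, IL-7 and IL-2. The Control group (3 samples) then received vehicle and the toyocamycin group (3 samples) received toyocamycin for 16 h. Toyocamycin, a nucleoside related to adenosine, is known as an inhibitor of ribosomal RNA maturation and of the RNase of IRE1, a sensor of endoplasmic reticulum stress. The sources used here give neither its dose nor the number of mice behind the samples. They also do not say whether replicates were separate cultures, so the spread behind each p-value is that among these samples alone and could be technical.

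Caspases are proteases that cut other proteins after aspartate. Caspase-8 starts the cascade at death receptors, caspase-9 starts it on the apoptosome that forms when cytochrome c leaves mitochondria, and executioner caspases such as caspase-6 carry it out, while caspase-1 acts in inflammasomes. Cflar encodes cFLIP, a relative of caspase-8 without protease activity that competes with it at the receptor. XIAP binds and blocks active caspases, and the products of Birc2 and Birc3 (cIAP1 and cIAP2) are ubiquitin ligases that act on RIPK1 at the TNF receptor and on the kinase NIK, encoded by Map3k14. Activated lymphocytes are known to rely on cFLIP and the cIAPs to survive TNF family signals.

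Values are read counts divided by a size factor for each sample, here called normalised read counts. The libraries held 22.3 M to 36.7 M reads assigned to genes, and 3 reads, the smallest level treated as detectable, correspond to a mean of 2.66 in Control and 3.38 with toyocamycin. All 13 ILC2 markers examined were detected, with Il1rl1 at a mean of 104900 in Control and 126000 with toyocamycin and Gata3 at 32470 and 65660. Rora (1414 and 18480) and Ptprc (28950 and 51790) were also at higher means with toyocamycin. The remaining markers were at lower means, among them Il13 (88690 and 12760), Il5 (101500 and 59660), Il2ra (80430 and 27050), Il7r (29470 and 9876), Klrg1 (10020 and 4152) and Areg (12120 and 4811). The sum of the 13 ran from 505700 to 517700 in Control and from 384000 to 416800 with toyocamycin. Marker lists of other cells were far lower. Their summed levels ran from 226 to 275 in Control and 276 to 330 with toyocamycin for T cells (8 genes), from 642 to 717 and 511 to 543 for ILC3s (7 genes), from 157 to 226 and 29.6 to 46.2 for NK cells and ILC1s (7 genes, Klra8 and Ifng at 0), and from 367 to 470 and 187 to 223 for B cells (6 genes). Those of macrophages and dendritic cells (8 genes) were 891 to 1308 and 1087 to 1569, those of mast cells (6 genes, Fcer1a at 0) 5.27 to 16.3 and 0 to 7.92, those of epithelium (5 genes) 190 to 248 and 197 to 217, and those of fibroblasts and endothelium (6 genes) 1284 to 1443 and 709 to 902. Some of these sums largely follow 1 gene. Only 1 of the 7 NK cell and ILC1 markers was detected, Prf1 (means of 193.6 in Control and 36.9 with toyocamycin). Cd79b (390.5 and 183.7) led the B cell list and Pecam1 (1012 and 565) that of fibroblasts and endothelium. In these bulk samples, fewer cells with a transcript and less of it per cell cannot be told apart.

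With toyocamycin, the transcripts of the IAP genes Birc2 and Birc3 moved in opposite directions, Casp1 fell 4.25-fold, Casp6 rose 2.38-fold, Casp8, the starter of the death receptor route, fell 1.34-fold, and Casp9, the starter of the mitochondrial route, did not pass the test. Of the 8 genes 3 were higher (Casp6, Birc2 and Cflar), 3 were lower (Casp1, Casp8 and Birc3) and 2 did not pass (Casp9 and Xiap) at an adjusted p under 0.05. The 6 calls are 75% of the 8 genes, where 65.9% of the 16223 genes tested were called (32.8% higher and 33.1% lower), so the share is near that of the whole table. By the added demand of at least a 2-fold change, 4 of the 8 genes were called (Casp1, Casp6, Birc2 and Birc3), compared with 37.5% of all. The median log2 change of the 8 genes was −0.03 and that of all genes −0.03, and the median size of change was 0.84 against 0.87. The groups did not overlap in 7 of the 8 genes, compared with 69.1% of all genes. Directions of small changes depend on how the samples are scaled, since setting all samples to equal totals moves the median log2 change of all genes from −0.03 to −0.36 and the share of calls that are higher from 49.7% to 36.9%. On that scale 2 of the 8 genes were higher and 5 lower, where 67.3% of all genes were called, 24.9% higher and 42.5% lower. With quantile normalization 2 were higher and 4 lower (64.9% of all genes called, 33% higher and 31.8% lower), and edgeR on the recovered reads gave 3 and 4 (65.9% of all, 31.9% higher and 33.9% lower).

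**Figure D1:**
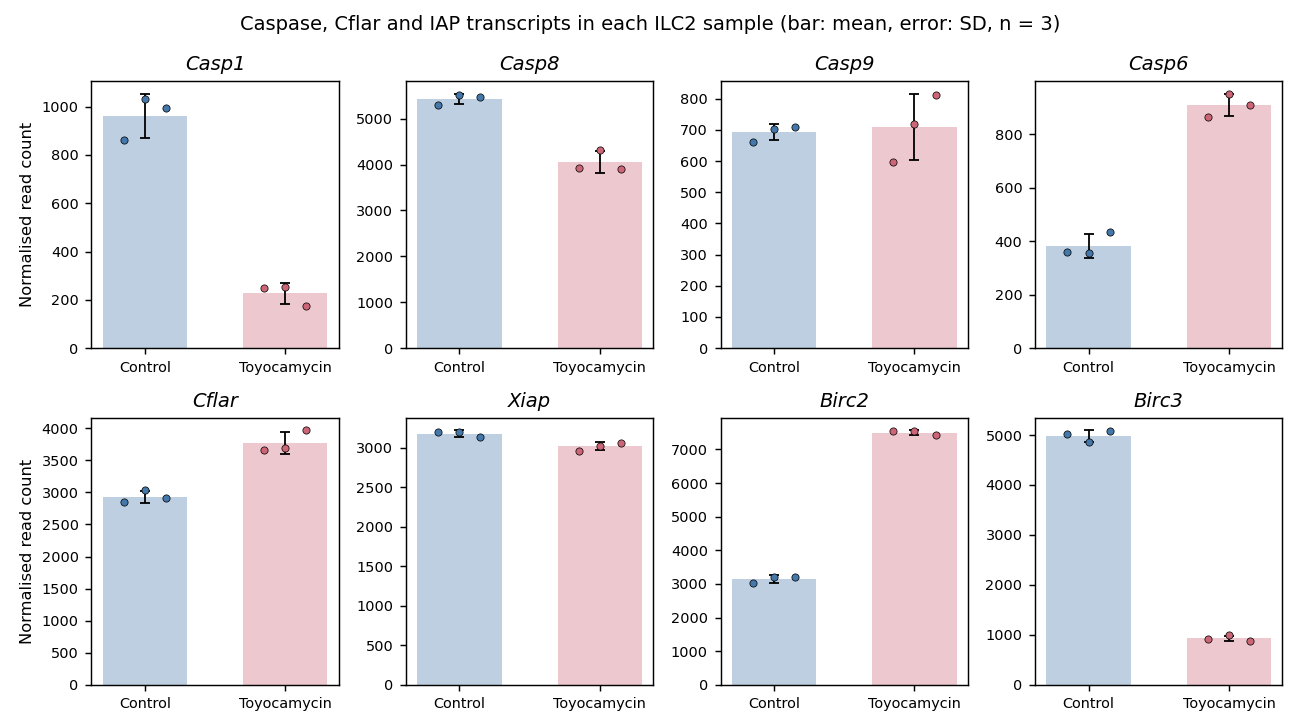
Normalised read counts (vertical axes, from 0) of the 8 genes in 3 Control and 3 toyocamycin samples. Points are samples, bars are means and error bars are SD. The samples of the 2 groups are apart in every panel but that of Casp9, and the separation is widest for Birc3, Casp1, Birc2 and Casp6.

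Birc2 and Birc3 are neighbours on chromosome 9, both on the minus strand, with Birc2 at 7818227 to 7837064, Birc3 at 7848699 to 7873186 (mm10, GENCODE M21), 11.6 kb between them and no protein-coding gene in the gap. The 250 bases before the annotated start of each gene are shown because the neighbours moved apart. They are from RefSeq (GRCm38.p6), 5′ to 3′ on the gene's strand, with CpG dinucleotides in capitals. The window of Birc2 is chr9:7837058-7837307, that of its start farther upstream of 2, and the window of Birc3 is chr9:7873171-7873420, both on the minus strand.
Birc2: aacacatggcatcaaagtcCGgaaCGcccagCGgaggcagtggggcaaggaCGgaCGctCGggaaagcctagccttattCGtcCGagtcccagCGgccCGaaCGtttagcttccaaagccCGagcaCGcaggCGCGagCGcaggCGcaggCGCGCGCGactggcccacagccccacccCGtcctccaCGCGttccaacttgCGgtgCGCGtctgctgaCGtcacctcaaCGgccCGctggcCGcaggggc
Birc3: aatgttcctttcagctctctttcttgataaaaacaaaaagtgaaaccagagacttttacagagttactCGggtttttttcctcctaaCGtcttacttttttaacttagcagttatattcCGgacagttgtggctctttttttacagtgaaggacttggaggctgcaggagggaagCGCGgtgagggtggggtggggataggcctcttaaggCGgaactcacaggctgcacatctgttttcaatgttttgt
The Birc2 window holds 31 CpGs and is 68.4% G and C, that of the other annotated start of Birc2 holds 19 CpGs and is 61.2% G and C, and the Birc3 window holds 6 CpGs and is 43.6% G and C. The median of 32851 promoter windows is 6 CpGs and 52.4% G and C, with the middle of the distribution between 2 and 16 CpGs. Among the other genes the window held 11 CpGs in Casp6, 7 in Cflar, 5 in Casp8, 1 in Casp1 and 25 in Casp9, and from 1 to 13 at the 3 starts of Xiap. The RefSeq window of Casp8 (chr1:58802252-58802501) and those of Xiap lie inside the GENCODE bounds of these genes given below. They do not describe the sequence before the GENCODE starts. Neither the NF-kB consensus, searched on both strands, nor the AP-1 motif TGANTCA was in the 300-base window (250 before and 50 after the start) of Birc2 or Birc3. The NF-kB consensus was in 1 of the 11 windows of the 8 genes, that of a start of Xiap, and in 8.46% of all promoter windows. AP-1 was in 0 of 11 and in 7.81% of all. A match or its lack describes these windows only.

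Birc3, which encodes cIAP2, was at 5011, 4856 and 5073 normalised reads in Control replicates 1, 2 and 3 and at 909.9, 990.9 and 882.7 with toyocamycin. Every Control sample was above every treated sample by a wide margin. The mean fell 5.37-fold, from 4980 ± 112 (SD, n = 3) to 927.8 ± 56.3, with a log2 change of −2.42 (SE 0.061, adjusted p = 3.76e-18). Of all genes tested, 4.46% had a more negative change.

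Birc2, which encodes cIAP1, was at 3014, 3196 and 3221 in Control and at 7537, 7538 and 7426 with toyocamycin. The treated samples lay within a few percent of each other and all above Control. The mean rose 2.39-fold, from 3144 ± 113 to 7500 ± 64.4 (a log2 change of 1.25 with an SE of 0.051, adjusted p = 4.6e-15). The ratio of Birc3 to Birc2 reads within a sample, which no single factor per sample can move, was 1.66, 1.52 and 1.57 in Control and 0.121, 0.131 and 0.119 with toyocamycin. It was 12.8-fold lower with toyocamycin (log2 difference −3.68). The exact two-sided permutation p was 0.1, the smallest that 3 against 3 samples can give, and 0.15 adjusted over the 3 ratios computed. Of the stretches of 50 bases in the annotated transcripts, 1.49% in Birc2 and 7.56% in Birc3 also occur in another gene, among them each other and the locus Gm7019. The sources used here do not say how reads in those stretches were assigned.

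Xiap (chromosome X, 42059679 to 42109656) encodes the IAP that binds caspases most directly. It was at 3205, 3204 and 3136 in Control and 2965, 3029 and 3067 with toyocamycin. The treated samples were all slightly below Control, without overlap. The means were 3182 ± 39.6 and 3020 ± 51.7, and the log2 change of −0.08 (SE 0.053, adjusted p = 0.225) did not pass. It was called lower at an adjusted p of 6.42e-07 with equal totals (−0.42), of 1.33e-07 after quantile normalization (−0.50) and of 0.0249 by edgeR (−0.13).

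Cflar and Casp8, which encode partners in the death receptor complex, also lie next to each other, on the plus strand of chromosome 1 (58711508 to 58758884 and 58795374 to 58847503), 36.5 kb apart with no protein-coding gene between. Casp8 was at 5296, 5514 and 5476 in Control and 3931, 4328 and 3915 with toyocamycin. All treated samples were lower. The mean fell 1.34-fold, from 5429 ± 116 to 4058 ± 234 (a log2 change of −0.42 with an SE of 0.054, adjusted p = 5.76e-07), and the gene was called lower under every alternative run. Cflar was at 2858, 3031 and 2908 in Control and 3663, 3688 and 3966 with toyocamycin, again without overlap. Its mean rose 1.29-fold, from 2932 ± 89.4 to 3772 ± 168 (a log2 change of 0.36 with an SE of 0.055, adjusted p = 6.02e-06). Its call was lost when totals were made equal (0.01, adjusted p = 0.829) and after quantile normalization (−0.09, adjusted p = 0.155), while edgeR on the recovered reads kept it (0.31, adjusted p = 1.62e-05). The ratio of Cflar to Casp8 reads, free of any single factor per sample, was 0.54, 0.55 and 0.531 in Control against 0.932, 0.852 and 1.01 with toyocamycin. It was 1.72-fold higher (log2 difference 0.78, exact two-sided permutation p = 0.1, the smallest possible, and 0.15 adjusted over 3 ratios). All 3 treated samples were above all Control samples. In Cflar 7.36% and in Casp8 4.37% of the 50-base stretches occur in another gene.

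**Figure D2:**
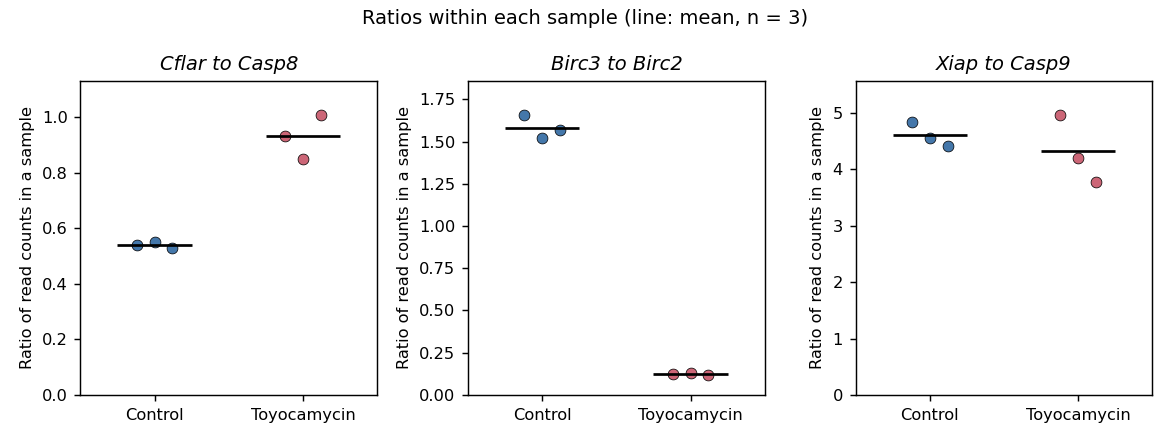
Ratio of the normalised read counts of 2 genes within each sample (vertical axes, from 0) for Cflar to Casp8, Birc3 to Birc2 and Xiap to Casp9. Points are samples and lines are means of 3. The groups are apart for Cflar to Casp8 and for Birc3 to Birc2 and overlap for Xiap to Casp9, whose means are 4.6 and 4.32.

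Casp9 (chromosome 4, 141793612 to 141815976), the caspase of the apoptosome, was at 662.3, 704.7 and 710.0 in Control and 596.9, 719.9 and 811.1 with toyocamycin. The treated samples spread around the Control samples. The means were 692.4 ± 26.1 and 709.3 ± 107, with a log2 change of 0.02 (SE 0.1, adjusted p = 0.849). With equal totals the change was −0.32 (adjusted p = 0.0104) and the gene was called lower. The Xiap to Casp9 ratio was 4.60 ± 0.22 in Control and 4.32 ± 0.6 with toyocamycin, a log2 difference of −0.10 (exact permutation p = 0.5, also 0.5 adjusted). Exons of Cela2a and Ctrc on the opposite strand cover 1.81% of the Casp9 exons, and the sources used here do not say whether counting used the strand.

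Casp6 (chromosome 3, 129901425 to 129914103), which encodes an executioner caspase known to cut nuclear lamins, was at 358.8, 355.4 and 432.7 in Control and 866.3, 951.1 and 909.4 with toyocamycin. Each treated sample was above each Control sample. The mean rose 2.38-fold, from 382.3 ± 43.7 to 909.0 ± 42.4 (a log2 change of 1.25 with an SE of 0.097, adjusted p = 2.04e-10).

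Casp1 (chromosome 9, 5298517 to 5307265), the inflammasome caspase that processes IL-1β and IL-18, was at 860.8, 1034 and 994.4 in Control and 250.9, 253.2 and 174.8 with toyocamycin. All treated samples were lower. The mean fell 4.25-fold, from 963.0 ± 90.7 to 226.3 ± 44.6 (a log2 change of −2.10 with an SE of 0.13, adjusted p = 4.3e-12). Macrophages are known to express Casp1, and 6 of the 8 macrophage and dendritic cell markers were detected. The most abundant, Lyz2 and Cd68, had Control means of 592.4 and 448.4 and toyocamycin means of 585.8 and 678.7, of the same order as Casp1. Adgre1 had a mean of 1.17 in Control and 2.25 with toyocamycin, below the detection floor, Csf1r was at 16.0 and 31.5, and the ranges of the summed list overlapped between the groups. The part of such cells in the result for Casp1 was not tested. Casp4, the neighbour of Casp1 at a distance of 1.56 kb and a sensor of bacterial lipopolysaccharide, was at 447.6, 453.7 and 474.8 in Control and 372.4, 473.4 and 301.1 with toyocamycin. The groups overlapped and its log2 change of −0.29 (SE 0.13, adjusted p = 0.0627) did not pass, although it passed without toyocamycin replicate 2 (−0.45, adjusted p = 0.00614) , by edgeR (adjusted p = 0.0302), with equal totals (−0.63, adjusted p = 0.000357) and, just, among genes with a mean of at least 10 (adjusted p = 0.0469). With quantile normalization its change was 0.03 (adjusted p = 0.842).

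**Figure D3:**
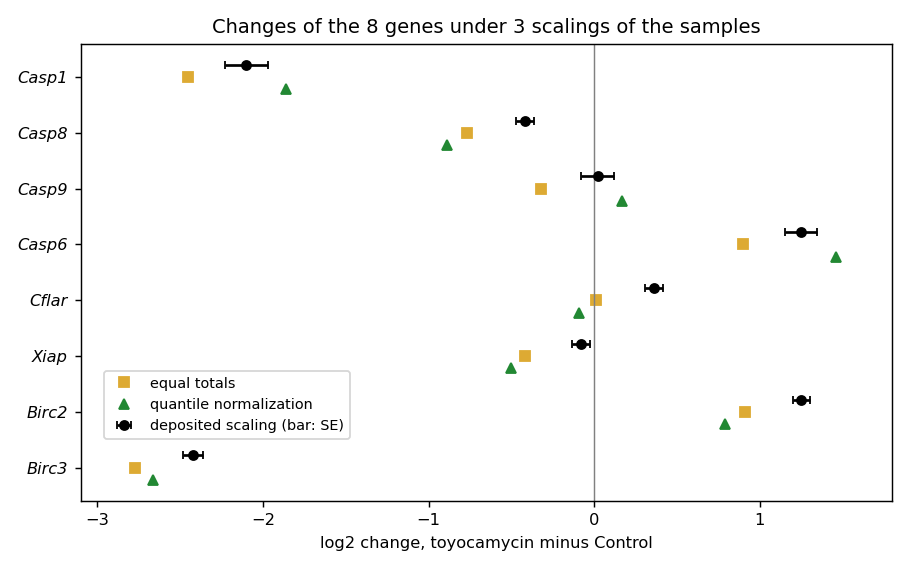
log2 change of each of the 8 genes (horizontal axis, toyocamycin minus Control) with the deposited scaling (circles, with SE), with equal totals (squares) and with quantile normalization (triangles). Birc3, Casp1, Casp8, Birc2 and Casp6 keep their side of 0 in all of these, while Cflar runs from 0.36 to −0.09 and Casp9 from 0.17 to −0.32.

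Levels of different genes were compared per kb of annotated exon, since longer transcripts give more reads. On this scale Casp8 had the highest level in Control, 1876 ± 40.3 normalised reads per kb, followed by Birc3 (994.2 ± 22.3), Birc2 (686.4 ± 24.7), Casp1 (643.3 ± 60.6), Xiap (336.0 ± 4.18), Cflar (231.5 ± 7.05), Casp9 (133.2 ± 5.03) and Casp6 (68.5 ± 7.82). Birc2 and Casp1 did not differ beyond their spread. With toyocamycin Birc2 was first (1638 ± 14.1), ahead of Casp8 (1403 ± 80.8), and Birc3 was at 185.2 ± 11.2, below Xiap (319.0 ± 5.46) and Cflar (297.8 ± 13.2), whose nearest samples were at 313.1 and 313.0. Casp6 (162.8 ± 7.59), Casp1 (151.2 ± 29.8) and Casp9 (136.5 ± 20.7) could not be ordered beyond their spread. Exon lengths join all annotated isoforms (13 transcripts for Cflar), which lowers the level per kb where a gene uses few of them.

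**Figure D4:**
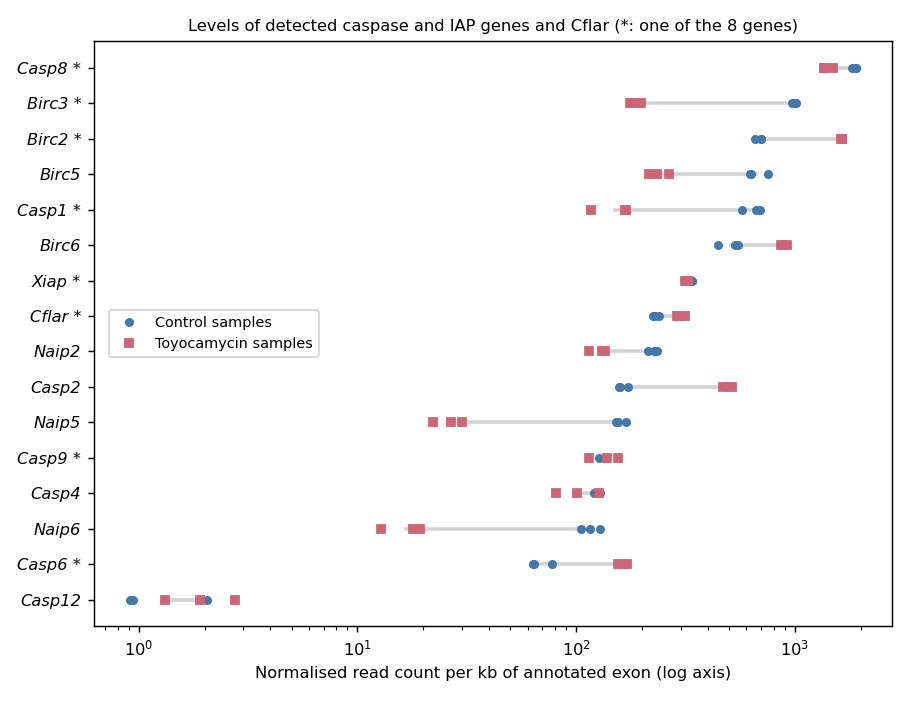
Normalised read count per kb of annotated exon (horizontal log axis) of the detected caspase and IAP genes reported here and Cflar, ordered by their Control mean, with 1 point per sample (circles Control, squares toyocamycin) and a grey line between the group means. Birc3 falls from 994.2 to 185.2 and Birc2 rises from 686.4 to 1638, so their order is exchanged.

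A further 11 caspase and IAP genes also moved both ways. Among 8 measured, 2 rose, 4 fell and 2 did not pass (75% called, against 65.9% of all genes), with a median log2 change of −0.55, or −0.90 with equal totals. Casp14, Birc7 and Naip1 were at 0 in all samples, and Casp12 (5.011 ± 2.5 and 7.644 ± 2.76) was just above the floor. Casp2, whose product responds to failed cell division and DNA damage, was at 1220, 1109 and 1123 in Control and 3325, 3643 and 3516 with toyocamycin. It rose 3.04-fold from 1150 ± 60.2 to 3495 ± 160 (adjusted p = 2.5e-15).

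Among the other IAP genes, Birc6, which encodes a giant ubiquitin ligase, rose 1.75-fold from 13110 ± 1390 to 22920 ± 677 (adjusted p = 2.08e-10). Birc5, which encodes survivin, a protein of the mitotic chromosomal passenger complex, fell 2.79-fold from 2269 ± 246 to 813.4 ± 88.1 (adjusted p = 1.43e-12). The NAIP genes detected, whose products sense bacterial proteins such as flagellin for the NLRC4 inflammasome, fell 1.76-fold for Naip2, 6.01-fold for Naip5 and 6.94-fold for Naip6. They are near copies of each other, with 19.1%, 36.9% and 21.5% of their 50-base stretches in another gene, so their separate values are uncertain. Nlrc4 itself was near or below the floor, with means of 2.69 in Control and 1.45 with toyocamycin.

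A list of 12 genes held partners of Casp9 on the apoptosome, antagonists of the IAPs, and inhibitors and chaperones named beside them. Of these 3 rose, 7 fell and 2 did not pass (83.3% called, against 65.9% of all genes, of which 33.1% were lower). The median was −0.38 (−0.73 with equal totals). The 7 include Apaf1, the scaffold of the apoptosome, which fell only 1.09-fold (adjusted p = 0.0306). The count of 7 became 6 without Control replicate 1, without Control replicate 2 or without toyocamycin replicate 1. Htra2, a mitochondrial protease that can bind IAPs, fell 6.21-fold from 550.6 ± 45.9 to 88.6 ± 16.6 (adjusted p = 2.67e-12). Nol3, which encodes the caspase recruitment inhibitor ARC, fell from 89.5 ± 19.8 to 15.8 ± 4.54 (adjusted p = 3.05e-06), and Xaf1, which encodes an XIAP-binding factor, fell 3.83-fold from 465.9 ± 49.6 to 121.7 ± 16.1. Hspa1a, the gene of an inducible chaperone, rose from 3.53 ± 3.02, near the floor, to 38.2 ± 16.0 (adjusted p = 3.84e-05), and is uncertain because Hspa1b is a near-identical copy.

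In the death receptor complexes, where Casp8, Cflar, Birc2 and Birc3 act, 8 of 26 genes rose, 8 fell and 10 did not pass. That is 61.5% called, against 65.9% of all genes (32.8% higher and 33.1% lower), and the median was 0.03. The split became 6 higher and 16 lower when totals were made equal (median −0.32), where 24.9% of all genes were higher and 42.5% lower. Tnfaip3, which encodes the NF-kB feedback inhibitor A20, rose 7.77-fold, from 2823 ± 99.2 to 21940 ± 855 (a log2 change of 2.96 with an SE of 0.051, adjusted p = 3.73e-20), while Birc3, like it a known NF-kB target, fell. The ligand gene Tnfsf10 (TRAIL) fell 4.12-fold from 3571 ± 104 to 866.3 ± 107 (adjusted p = 1.08e-15). The ligand gene Fasl rose from 3.23 ± 3.31, near the floor, to 42.9 ± 12.3 (adjusted p = 1.29e-05). Fadd, the adaptor that brings caspase-8 to the receptor, fell 3.33-fold from 304.4 ± 34.9 to 91.4 ± 14.8 (adjusted p = 1.4e-08). The TNF receptor gene Tnfrsf1b (17730 ± 597 and 18120 ± 483, adjusted p = 0.595) and the deubiquitinase gene Cyld (5142 ± 221 and 4915 ± 129, adjusted p = 0.296) did not pass, but both were called lower with equal totals and with quantile normalization.

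The cIAPs restrain noncanonical NF-kB signalling together with TRAF2 and TRAF3. Of 12 genes of that control 4 rose, 5 fell and 3 did not pass (75% called, against 65.9% of all genes). The median was −0.17, or −0.52 with equal totals, −0.37 among genes with a mean of at least 10 and −0.11 without toyocamycin replicate 3. Map3k14, the gene of the kinase NIK, had a log2 change of 0.02 (adjusted p = 0.836). Relb, a subunit of the noncanonical complex, fell 3.56-fold from 2380 ± 77.7 to 668.6 ± 75 (adjusted p = 1.04e-14). The kinase gene Chuk (IKKα) rose 1.76-fold from 2382 ± 56.6 to 4181 ± 58.7. The costimulatory receptor genes Tnfrsf18 (GITR), 2.34-fold lower from 2464 ± 126, and Tnfrsf4 (OX40), from 49.2 ± 16.0 to 19.6 ± 4.32 (adjusted p = 0.00704), both fell, the latter not without Control replicate 1 (log2 change −1.04, adjusted p = 0.0559). With equal totals 3 genes of this list were higher and 8 lower, where 24.9% of all genes were higher and 42.5% lower.

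Inflammasome and pyroptosis genes, the setting of Casp1, had 2 higher, 6 lower and 7 that did not pass among 15 measured. That is 53.3% called, against 65.9% of all genes (32.8% higher and 33.1% lower). The median was −0.59, or −0.79 with equal totals, −0.38 without Control replicate 1 and −0.70 without Control replicate 3. Gsdmd, which encodes the pore-forming substrate of caspase-1, was at 1308, 1244 and 1455 in Control and 157.2, 208.3 and 143.3 with toyocamycin. It fell 7.88-fold (a log2 change of −2.99 with an SE of 0.12, adjusted p = 5.47e-15). Serpinb1a, a protease inhibitor gene, fell from 28.01 ± 7.6 to 4.42 ± 2.09, near the floor (adjusted p = 0.000358). Of the sensor genes, Aim2, whose product binds DNA, rose 2.18-fold from 628.1 ± 17.2 to 1371 ± 123 (adjusted p = 5.58e-11), and Nlrp3 (77.3 ± 10.2 and 74.8 ± 18.3, adjusted p = 0.845) did not pass. Nlrp1a went from 10.35 ± 0.629 to 0 reads in all treated samples, at least 3.06-fold lower, and Nlrp1b went from 9.76 ± 2.64 to 1.45 ± 1.34, below the floor. Mefv was at 0 in all samples. Il1b (5.65 in Control and 3.35 with toyocamycin) and Il18 (1.76 and 2.41), whose products caspase-1 processes, were near or below the floor.

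Among 16 genes whose products are cut or activated by caspases, 5 rose, 8 fell and 3 did not pass. That is 81.2% called, against 65.9% of all genes (32.8% higher and 33.1% lower). The median was −0.10, and −0.45 with equal totals. Dffa, which encodes the inhibitor that holds the apoptotic DNase in check, fell 4.45-fold from 1032 ± 24.2 to 232.0 ± 20.1 (adjusted p = 3.47e-14). Rock1, the gene of a kinase behind membrane blebbing, rose 3.15-fold from 5386 ± 247 to 16980 ± 958 (adjusted p = 1.3e-16). Bid, which links caspase-8 to mitochondria, fell 2.88-fold from 204.1 ± 28.5 to 70.8 ± 11.4, and Gsn (gelsolin) fell 2.49-fold from 4512 ± 229 to 1811 ± 147. Stk4 (9377 ± 157 and 9930 ± 494, adjusted p = 0.167) and Lmna (7560 ± 299 and 7639 ± 427, adjusted p = 0.833) did not pass with the deposited scaling.

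**Figure D5:**
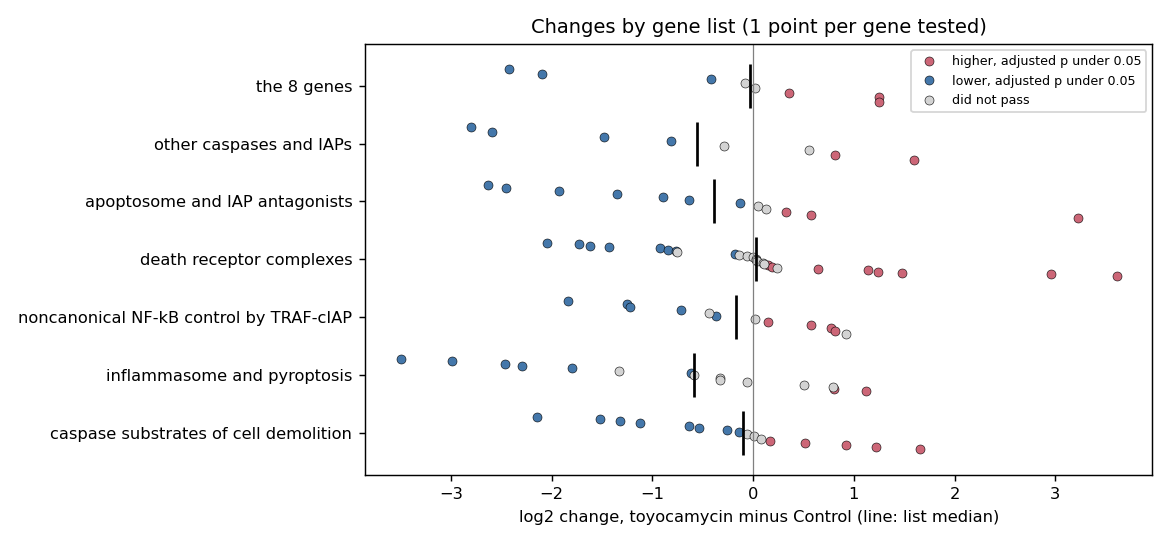
log2 change of each gene tested (horizontal axis, toyocamycin minus Control) in the 8 genes and the 6 lists around them. Red and blue points passed the threshold as higher and lower, grey points did not, and black lines are list medians, which run from −0.59 to 0.03.

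Among 9913 other genes with a mean of at least 100, those whose profile over the 6 samples lay closest to Birc2 were Tomm70a, Hbs1l and Hk2, at root mean square distances of 0.013, 0.022 and 0.022 on the log2 scale, centred on the Control mean. Tomm70a went from 2793 ± 102 to 6691 ± 131. Closest to Birc3 were Myo1g, Pola1 and Parpbp, at 0.040, 0.047 and 0.048. Myo1g went from 14860 ± 241 to 2823 ± 122. These are likenesses over 6 samples in 2 groups, in which a large share of genes changed.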

How the data were processed

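TRIzol was used for total RNA, and libraries followed Illumina's standard protocols, per the labels. The authors used cutadapt 4.7, FastQC and build mm10, per the submitters' processing notes; the sources used here do not give the aligner, the counting program or the strand setting. The deposited signal is named for FPKM, but in each sample 100% of the values above 0 are whole multiples (tolerance 0.01 reads) of 1 step that is the same for all genes, so it is read counts per gene divided by a size factor (0.7572 to 1.1808), with no division by length. All 6 columns were matched to samples by group letter and replicate number.

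log2(value + 1) of the 16223 genes with a mean of at least 1 was fitted in limma 3.58.1 (R 4.3.3, mean-variance trend, no replicate block, two-sided); p-values were adjusted by Benjamini-Hochberg over all genes, with a threshold of 0.05. The pseudocount makes log2 changes understate those of low genes, and fold values are ratios of group means. Ratios within samples were tested by exact permutation. The limma, edgeR and DESeq2 code was tested on simulated data in which few genes changed. That test does not bear on the scaling of these samples, where 65.9% of genes were called. Alternatives were a pseudocount of 0.1, no filter, a mean of at least 10, equal totals, quantile normalization, edgeR 4.0.16 and DESeq2 1.42.0 on the recovered reads, a replicate block and leaving out each sample.

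No 2 replicates agreed within sampling noise (their chi-square was 3.96 to 7.76 times its degrees of freedom), so all were kept. The members and gene lists were chosen with earlier results of these data known. Beyond the 8 genes and the other caspases and IAPs, each list names up to 4 called genes of largest change without overlap between groups. Each also names up to 2 genes of mean 1000 or more that did not pass. Genes named beside these (Map3k14, Aim2, Nlrp3, Nlrc4, Il1b, Il18, Apaf1 and the cell type markers) were chosen after their values were seen. Arc, in the apoptosome list, shares only an abbreviation with the inhibitor ARC (Nol3) and did not pass; Traf2 is in 2 lists. Some genes of the list of further caspases and IAPs are not reported here and were left out of its counts. Gene models are GENCODE M21 on mm10; the shared stretches were counted over its transcripts.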

Additional observations from a re-analysis of the deposited data

How the results depend on the processing

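Under the 14 alternatives, Casp1, Casp6, Casp8, Birc2 and Birc3 kept their direction and call in all 14 (Birc3 from −2.77 to −2.39, Birc2 from 0.79 to 1.27, Casp1 from −2.45 to −1.86). Casp9 changed in 1, Cflar in 2 and Xiap in 3, all with another scaling or, for Xiap, also edgeR. With equal totals 5 of the 8 genes were lower in place of 3, as were 16 death receptor genes in place of 8 and 8 noncanonical NF-kB genes in place of 5. Of all genes, 42.5% were lower with equal totals, in place of 33.1%. With quantile normalization 15 death receptor genes were lower and 3 caspase substrates higher in place of 5 (31.8% of all genes were lower and 33% higher). Directions turned with equal totals for Casp9 (−0.32), Tnfrsf1b (−0.32), Stk4 (−0.27) and Lmna (−0.33), and with quantile normalization for Cflar (−0.09), Tnfrsf1b (−0.45), Stk4 (−0.39) and Lmna (−0.47). Casp4 also turned with quantile normalization (0.03), and was called neither there nor with the deposited scaling. Equal totals, quantile normalization and the deposited size factors each set the level of the samples against each other by construction. Which of these scalings is right was not tested. Of the 32 other named genes, 26 kept direction and call in every alternative that could be run on them. The 3 ratios kept their direction in every alternative run, but that of Xiap to Casp9 came to −0.01 without toyocamycin replicate 3. The pseudocount and the replicate block left all 3 ratios unmoved, as they can hardly shift them, so only leaving out samples bears on this.

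Same-numbered samples did not deviate together (correlations of −0.01, 0.02 and −0.04), so the numbers were not taken as pairs. The fit with a replicate block called 5272 genes higher and 5298 lower, in place of 5316 and 5374, and gave 3 higher and 3 lower among the 8 genes. The exact sign-flip permutation test of paired ratios cannot go below p = 0.25. Leaving out single samples moved no count of calls by over 1.5 times, but it moved list medians. That of the inflammasome genes went from −0.59 to −0.38 without Control replicate 1 and to −0.70 without Control replicate 3. That of the noncanonical NF-kB genes went from −0.17 to −0.11 without toyocamycin replicate 3. Depth limits Casp12, Nlrp1a, Nlrp1b, Nlrc4, Il1b and Il18, at or below about 10 normalised reads, and the toyocamycin level of Serpinb1a.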
